A study of Homo sapiens with 6 samples.

Results

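The fragments described here are the short RNAs cut from the 3' ends of nuclear tRNAs (3' tRFs) that remain after the most abundant ends are set aside. They were chosen from the 3443 tRNA-derived fragments of the count table as those of the 3' tRF type whose sequence matched none of the 22 mitochondrial tRNAs and did not hold the 13 terminal bases of tRF-17-8SOUPR2, tRF-18-HRERXFD2, tRF-18-HRE9XFD2, tRF-17-WS7K092 or tRF-17-K879652, 5 ends whose levels in these libraries were already known. Of 297 3' tRFs, 217 met the rule, with 5065 of the 126840 counts in the table. They were grouped by the 13 bases before a CCA or CC end into 63 terminal families, each with 1 such ending. Of the 217 fragments, 126 ended in CCA, 76 in CC and 15 in a single C; the last 15, with 21 counts in all, belong to no family under this rule. The families were then split by whether they were lower after the knockout, so their level in one group against the other is a description here and not evidence for the split.

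All 6 libraries were made from A375 cells, a line derived from a human melanoma. In 3 libraries the cells carried a DUS1L knockout made with CRISPR/Cas9 and taken through clonal selection, and in the other 3 they were wild-type cells kept alongside without DUS1L targeting. Per the labels, total RNA was extracted with TRIzol, and the small RNA libraries were size-selected for tRNA fragments and read from one end. How many clones the knockout libraries represent is not given in the sources used here, so a property of 1 clone and the loss of DUS1L cannot be told apart.

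DUS1L belongs to the dihydrouridine synthases, enzymes that reduce chosen uridines of tRNA, mostly in the D-loop near the 5' end of the molecule. A short 3' tRF lies at the other end: it starts in the T-loop or T-stem, runs through the acceptor stem, and closes with the CCA that the CCA-adding enzyme attaches to every mature tRNA and to which the amino acid is bound. The base just before the CCA is the discriminator base, which helps synthetases tell tRNAs apart. Fragments of this kind have been found bound to Argonaute proteins and can act like microRNAs, and a CC end is the same end without its last A.

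Of the 63 families, 18 had enough counts to be tested as sums. The sequences of 17 of them, each given as its most abundant fragment, show how close these endings are to one another. The capitals mark the 13 bases that define a family, read 5' to 3' in DNA letters as decoded from the deposited identifiers. The first 13 were lower after the knockout and so was tRF-16-WS7209D, while the last 3 were not counted as lower.
His-GTG ending, tRF-16-8US565D: tCCGAGTCACGGCAcc
Ile-AAT ending, tRF-18-8RSH66D2: tcCCCGTACGGGCCAcca
Thr-TGT ending, tRF-17-WSNKP92: tCTCGCTGGGGCCTcca
tRF-16-KP9BK1B: CCCAGTGGAACCAcca
Ala-AGC ending, tRF-16-K827K1B: CCCGGCACCTCCAcca
Leu-AAG ending, tRF-16-K5LYK1B: CCCACCGCTGCCAcca
CCCTGTTCGGGCG ending: tCCCTGTTCGGGCGcca
tRF-16-K8J7K1B: CCCGGCATCTCCAcca
Arg-ACG ending: ctCCTGGCTGGCTCGcca
tRF-18-HR05X6D2: atCCCACCACTGCCAcca
Gly-GCC ending, tRF-17-8SPOX52: tCCCGGCCAATGCAcca
Lys-CTT ending, tRF-16-K578Q1B: CCCACGTTGGGCGcca
tRF-17-8SP6X52: tCCCGGCCCATGCAcca
tRF-16-WS7209D: tCTCGGTGGAACCTcc
Asn-GTT ending, tRF-17-K5KKOV2: cCCACCCAGGGACGcca
tRF-18-8RF546D2: tcCCCAGCACCTCCAcca
Trp-CCA ending, tRF-17-8HWKS52: tCACGTCGGGGTCAcca

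Amino acid names rest on a match of the fragment to the 3' end of a tRNA gene on GRCh38. The reference sequences used here covered the last 13 bases of 54 of 443 nuclear tRNA genes, so a named parent is a match among those 54, other genes can carry the same end, and an ending without a name matched none of them. In all, 17 of 63 families had a match, 10 of the 18 tested ones among them. The most abundant Thr-TGT fragment matched TRT-TGT6-1 (chromosome 5, 181191687 to 181191758, minus strand). Some rarer fragments of that family, such as tRF-17-3SNKP92 with 20 counts, differ before the 13 bases and matched no gene searched. The most abundant Ile-AAT fragment matched TRI-AAT8-1 (chromosome 6, 27668583 to 27668656, plus strand). The 13 bases of the Ile-AAT ending are also those of TRI-AAT4-1 (chromosome 17, 8226991 to 8227064, minus strand), which the shorter fragments of the family matched too. The Trp-CCA ending matched TRW-CCA1-1 (chromosome 17, 8220869 to 8220940, minus strand). The His-GTG ending matched 4 genes, of which TRH-GTG1-3 lies on chromosome 1 (148281365 to 148281436, plus strand) and the others lie on chromosome 15. The Ala-AGC ending matched TRA-AGC2-2 (chromosome 6, 28863685 to 28863756, minus strand), the Arg-ACG ending TRR-ACG2-1 (chromosome 3, 45688999 to 45689071, minus strand) and the Lys-CTT ending TRK-CTT3-1 (chromosome 16, 3157405 to 3157477, minus strand). The Leu-AAG ending matched TRL-AAG2-2 on chromosome 6 and TRL-AAG2-4 on chromosome 16, the Gly-GCC ending TRG-GCC2-1 on chromosome 1 and TRG-GCC2-4 on chromosome 16, and the Asn-GTT ending TRN-GTT4-1 on chromosome 1. All of these are annotated as tRNA genes.

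Library totals were 16047 to 23063 counts in the knockout and 15742 to 32754 counts in the wild type. Pairs of knockout libraries differed by a chi-square per degree of freedom of 3.23 to 3.89. Wild-type replicate 3 stood apart from the other wild-type libraries, at 12.6 against replicate 1 and 7.51 against replicate 2, while those 2 libraries gave 2.69 between them. Levels are given below as raw counts and as counts per 1e6 counts after scaling by the trimmed mean of M-values (CPM), with SD over 3 libraries.

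The remaining nuclear 3' tRFs took 2.21%, 2.20% and 2.64% of the counts in knockout replicates 1 to 3, against 5.16%, 5.37% and 6.01% in wild-type replicates 1 to 3. The highest knockout library thus lay below the lowest wild-type library, and its exact binomial 95% interval, 2.43% to 2.85%, did not reach that of wild-type replicate 1, 4.93% to 5.41%. Such intervals cover counting error only and leave out differences between libraries. They also take each read as a separate molecule, which was not checked. In CPM the group averaged 22457 ± 1564 in the knockout and 57457 ± 1098 in the wild type, so the knockout level was 39.1% of the wild-type one. Counts are relative to the library, so fewer of these fragments and more of all others cannot be told apart. The 5 ends set aside by the rule stood at 29.6% of their wild-type CPM in the same libraries. The mitochondrial 3' tRFs averaged 2613 ± 507 CPM in the knockout and 8121 ± 5442 CPM in the wild type, or 32.2%, and 51.4% without wild-type replicate 2.

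Of the 18 families tested, 14 fell in the knockout and 0 rose (edgeR's quasi-likelihood test, adjusted p under 0.05 over 218 tested rows, in which 25.7% were lower and 26.1% higher). No family was higher at an unadjusted p under 0.05 either (0 of 18), and DESeq2's Wald test called 12 lower and 0 higher. Without knockout replicate 2, edgeR called 9 of 23 lower. All 18 reached the filter's count in every wild-type library and 14 did so in every knockout library, 11 of the lower ones among them. The endings that did not were His-GTG, Ala-AGC, Leu-AAG and that of tRF-17-PSJR852, which passed through the wild type, where they are high. Because this contrast is the one that split the families, nothing is read from the count. The median log2 fold change, knockout minus wild type, was -1.31 over the 18 families and 0.03 over all 218 rows. In 17 of the 18 families every knockout library was lower than every wild-type library in CPM, as was so for 28.9% of all tested rows.

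Among the 18 tested families, the lowest log2 fold change was that of the His-GTG ending. It had 5, 4 and 11 counts in knockout replicates 1 to 3, against 51, 27 and 38 counts in wild-type replicates 1 to 3. This ending passed the filter on low counts through the wild type, where it is high, so nothing is read from its fall or rank. All knockout libraries lay far under the wild-type ones, at 305 ± 111 CPM in the knockout and 1845 ± 88.1 CPM in the wild type (log2 fold change -2.53, SE 0.343). Its 16 nt fragment ending in CC, tRF-16-8US565D, had 1, 0 and 3 counts in the knockout and 18, 14 and 17 counts in the wild type, where a count of 0 in knockout replicate 2 still allows up to 3 counts. Its 17 nt fragment ending in CCA, tRF-17-8US5652, had 2, 1 and 2 counts in the knockout and 18, 9 and 14 counts in the wild type. Both fell, with log2 fold changes of -3.44 (SE 0.611) for the CC form, or -4.53 without knockout replicate 3, and -2.84 (SE 0.482) for the CCA form. They passed the filter on low counts through the wild type, where they are high, so nothing is read from their fall. The 18 nt fragment tRF-18-HS16MFD2, picked out after its counts were seen and too rare to be tested, had 1, 2 and 3 counts in the knockout and 3, 3 and 2 counts in the wild type, so its groups overlapped in counts.

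Next in size were endings of isoleucine and threonine tRNA. The Ile-AAT ending had 20, 16 and 27 counts in the knockout and 105, 61 and 62 counts in the wild type, or 997 ± 60.9 and 3647 ± 520.3 CPM (log2 fold change -1.86, SE 0.263). The Thr-TGT ending, the second largest family, had 49, 30 and 54 counts in the knockout and 218, 95 and 164 counts in the wild type, or 2101 ± 319 and 7446 ± 904 CPM (-1.82, SE 0.256). For both, no knockout library came near a wild-type one. In each, 1 fragment held most of the counts, 83.2% in the Ile-AAT family and 74.1% in the Thr-TGT family.

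The ending of tRF-16-KP9BK1B, which matched no gene searched, had 39, 24 and 43 counts in the knockout and 185, 102 and 63 counts in the wild type, with a log2 fold change of -1.71 (SE 0.334). Wild-type replicate 3 was its lowest wild-type library, and without that library the log2 fold change was -2.03. The Ala-AGC ending had 10, 9 and 20 counts in the knockout and 51, 28 and 40 counts in the wild type (-1.62, SE 0.302). The Leu-AAG ending had 11, 8 and 17 counts in the knockout and 45, 22 and 34 counts in the wild type (-1.48, SE 0.301). Scaled to depth, knockout libraries lay below wild-type libraries without overlap in these 3 families. The Ala-AGC and Leu-AAG endings passed the filter on low counts through the wild type, where they are high, so nothing is read from their fall.

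Further endings fell to between 35.9% and 41.6% of the wild-type level. The CCCTGTTCGGGCG ending had 19, 21 and 27 counts in the knockout and 92, 40 and 61 counts in the wild type. That of tRF-16-K8J7K1B had 13, 21 and 27 counts in the knockout and 89, 45 and 38 counts in the wild type. Their log2 fold changes were -1.48 (SE 0.259) and -1.46 (SE 0.326). The ending of tRF-18-HR05X6D2 had 32, 17 and 37 counts in the knockout and 101, 51 and 59 counts in the wild type (-1.29, SE 0.271). The Gly-GCC ending had 14, 12 and 31 counts in the knockout and 67, 24 and 46 counts in the wild type (-1.25, SE 0.315). The Arg-ACG ending, spread over 9 fragments, fell by 1.32 on the log2 scale (SE 0.333), with 623 ± 112 CPM in the knockout and 1555 ± 448 CPM in the wild type. In none of them did the groups overlap in CPM. The call for the Gly-GCC ending ended without knockout replicate 1 (edgeR adjusted p = 0.0572) or 2 (0.0626), and that for the Arg-ACG ending without knockout replicate 2 (0.0583).

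The smallest falls were those of 3 endings at 47.9% to 52.6% of the wild-type level. The largest family of all, that of tRF-17-8SP6X52 with 14.5% of the counts described here, had 91, 63 and 99 counts in the knockout and 202, 104 and 175 counts in the wild type (log2 fold change -0.92, SE 0.242). The family of tRF-16-WS7209D, a single fragment, had 22, 12 and 28 counts in the knockout and 49, 36 and 35 counts in the wild type (-1.0, SE 0.299). The Lys-CTT ending had 656 ± 163 CPM in the knockout and 1367 ± 45.1 CPM in the wild type (-1.07, SE 0.315). Each of these 3 calls ended when 1 knockout library was left out: the Lys-CTT ending without replicate 2 (edgeR adjusted p = 0.0547) or 3 (0.0659), tRF-16-WS7209D without replicate 1 (0.0532) or 2 (0.0836), and tRF-17-8SP6X52 without replicate 1 (0.0530), 2 (0.0583) or 3 (0.0509). That of tRF-16-WS7209D also ended without wild-type replicate 2 (0.0551).

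The Trp-CCA ending was the exception among the 18 families. It had 29, 23 and 43 counts in the knockout and 29, 13 and 50 counts in the wild type. The knockout libraries, at 1425, 1357 and 1694 CPM, lay between wild-type replicates 1 and 2, at 997 and 892 CPM, and wild-type replicate 3, at 2538 CPM. The means were 1492 ± 178 CPM in the knockout and 1476 ± 921 CPM in the wild type (0.02 on the log2 scale, SE 0.391, edgeR adjusted p = 0.976). Its sign followed the libraries used: the log2 fold change was 0.60 without wild-type replicate 3 (edgeR adjusted p = 0.144), -0.22 without wild-type replicate 1, -0.28 without wild-type replicate 2 and -0.10 with upper quartile scaling. The gap between wild-type libraries was widest in its 16 nt fragment, tRF-16-2WMK81B, with 13, 4 and 20 counts in the knockout and 4, 2 and 20 counts in the wild type. Without wild-type replicate 3 this fragment had a log2 fold change of 2.16 (edgeR adjusted p = 0.0146), against 0.55 (0.539) with all libraries. In that fit it passed the filter on low counts only through the knockout, where it is high, so nothing is read from the call.

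The other 3 families that were not counted as lower sat just outside the threshold. The Asn-GTT ending had 12, 12 and 18 counts in the knockout and 44, 11 and 27 counts in the wild type (-0.89 on the log2 scale, SE 0.347, edgeR adjusted p = 0.0507). That of tRF-18-8RF546D2 had 14, 10 and 12 counts in the knockout and 29, 20 and 16 counts in the wild type (-0.85, SE 0.353, 0.0638). The ending of tRF-17-PSJR852 had 10, 5 and 12 counts in the knockout and 27, 14 and 13 counts in the wild type (-0.98, SE 0.383, 0.0502). In each of them the groups did not overlap in CPM. Of the families that fell, those nearest the threshold were less close to it, namely tRF-16-WS7209D (edgeR adjusted p = 0.0181) and the Lys-CTT ending (0.0171). All 3 passed with upper quartile scaling, 2 of them also without wild-type replicate 3 (tRF-18-8RF546D2 at 0.0232 and tRF-17-PSJR852 at 0.0174) and the Asn-GTT ending without wild-type replicate 2 (0.0255). Of the 4 families not counted as lower, the Trp-CCA ending was thus the one that passed under none of these settings.

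Among single fragments, 21 of the 217 passed the filter on low counts, 18 of them reaching its count in every wild-type library and 7 in every knockout library. Of the 21, 17 fell and 0 rose, where 28.1% of all 235 tested fragments were lower and 25.5% higher. At an unadjusted p under 0.05, 0 rose as well. The 17 include all 7 that reached the filter's count in every knockout library, and the rest of the 17 did not reach it there. The contrast is also the one that split the families, so nothing is read from the count. DESeq2's Wald test called 9 lower and 0 higher, and without knockout replicate 1 edgeR called 9 of 24 lower. The 4 not called were both Trp-CCA fragments, tRF-18-8RF546D2 (log2 fold change -0.84) and tRF-17-8SPOX52 of the Gly-GCC family (-1.06). The other 196 fragments, with 1920 counts, were too rare to test one by one.

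Fold changes of fragments with the same ending but another length or end are given as a description. In the family of tRF-17-8SP6X52, the forms of 16, 17 and 18 nt had log2 fold changes of -1.31 (SE 0.338), -0.73 (SE 0.249) and -0.79 (SE 0.277). In the CCCTGTTCGGGCG family, the 16 nt form ending in CC fell by 1.87 on the log2 scale (SE 0.437) and the 17 nt form ending in CCA fell by 1.21 (SE 0.342). Those 2 forms begin at the same base, so they differ by the terminal A only. The 16 and 18 nt forms of the family of tRF-16-KP9BK1B fell by 1.63 (SE 0.344) and 1.52 (SE 0.414). The differences between forms within families were not tested, so no form is said to fall more than another. Both forms that differ by the terminal A passed the filter on low counts through the wild type, where they are high. So did the 16 nt form of the family of tRF-17-8SP6X52 and the 18 nt form of that of tRF-16-KP9BK1B. Nothing is read from the falls of these forms.

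The make-up of the fragments by 3' end and length was also compared, in a design of 3 libraries against 3 in which no exact permutation p can go below 0.1. Fragments ending in CCA made up 83.5%, 81.0% and 81.4% of the counts in knockout replicates 1 to 3, against 82.9%, 82.3% and 79.6% in wild-type replicates 1 to 3 (82.0% ± 1.32 and 81.6% ± 1.74, two-sided exact permutation p = 0.9). Mean length was 16.9 ± 0.0143 nt in the knockout and 16.9 ± 0.0564 nt in the wild type (exact permutation p = 0.7). Fragments of 16 to 18 nt held 99.6% ± 0.427 of the counts in the knockout and 98.9% ± 0.738 in the wild type (exact permutation p = 0.3). Adjusted over these 3 measures each p was 0.9, and with so few libraries that does not show the groups to be alike. By class, CPM in the knockout were 39.3% of the wild-type value for CCA ends and 37.6% for CC ends, and 36.8%, 41.8% and 40.1% for 16, 17 and 18 nt.

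Longer forms were rare. The 19 members of 19 to 22 nt had 0, 3 and 3 counts in the knockout and 31, 10 and 4 counts in the wild type, with most of them in wild-type replicate 1. Members of 18 nt held 1308 counts and those of 19 nt held 41. Only 2 members were 22 nt long, with 2 counts in all. The longer class of 3' tRFs known from other small RNA data could thus not be measured here, and the reason was not tested.

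Among the 45 families too rare to be tested, 9 had 30 or more counts, and all 9 had a lower mean in the knockout, at 13.8% to 49.4% of the wild-type CPM. The lowest of these, also lower than the His-GTG ending, was the ending of tRF-18-H77SXHD2, found as 11 different fragments, with 1, 0 and 3 counts in the knockout and 18, 5 and 5 counts in the wild type. An ending of valine tRNA (Val-CAC, tRF-16-K8Q2B5D, matching TRV-CAC3-1, with 13 bases shared by TRV-CAC1-1) had 3, 1 and 1 counts in the knockout and 10, 10 and 7 counts in the wild type. A second threonine ending (Thr-AGT, tRF-16-KPM43RB, matching TRT-AGT1-2) had 0, 4 and 5 counts in the knockout and 14, 6 and 11 counts in the wild type. An ending of glutamate tRNA (Glu-TTC, tRF-18-YRR6RBD2) had 5, 5 and 3 counts in the knockout and 11, 11 and 9 counts in the wild type. The others were led by tRF-18-8RFQ46D2, tRF-18-H7Q6JHD2, tRF-16-K847K1B, tRF-17-8P71K92 and tRF-18-8RSI66D2, and the last of these was the one whose groups overlapped. As one sum, the 36 families with under 30 counts each averaged 771 ± 208 CPM in the knockout and 2279 ± 259 CPM in the wild type, or 33.8%. Of all 27 families with 30 or more counts, the tested ones included, 26 had a lower mean in the knockout and 25 had groups that did not overlap, the knockout being the lower. Over all 337 rows with as many counts, 52.8% had a lower mean in the knockout and 27.6% had every knockout library under every wild-type library. These counts rest on the contrast that split the families and are given as a description.

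The 14 families that fell and the 4 that did not overlapped in every feature of their sequence and make-up that was compared, and with 4 families on one side no test was made. Of the 13 terminal bases, 8 to 10 were G or C in those that fell (median 10) and 9 to 10 in those that did not (median 9). The discriminator base was A in 9 of the 14 that fell and in 3 of the 4 that did not. Among families with 30 or more counts it was A in 17, G in 6, T in 4 and C in 0. Those that fell had 87 to 481 wild-type counts (median 154.5) and those that did not had 54 to 92 (median 73.5), so the second set was measured with fewer counts. The share of counts ending in CCA ran from 0% to 95.3% in those that fell and from 79.8% to 98.8% in those that did not.

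Many endings differed from another by 1 base, with 8 such pairs among the 27 families with 30 or more counts. Positions are counted from 1 at the first of the 13 capitals, and the base of the first-named family comes first. From tRF-17-8SP6X52 to the Gly-GCC ending the change was C8A, and the log2 fold changes were -0.92 and -1.25. From tRF-18-HR05X6D2 to the Leu-AAG ending it was A7G (-1.29 and -1.48), and from tRF-16-K8J7K1B to the Ala-AGC ending it was T8C (-1.46 and -1.62). In these pairs the values were similar, and no difference was tested. The Leu-AAG and Ala-AGC endings passed the filter on low counts through the wild type, where they are high, so nothing is read from these pairs. From the Ala-AGC ending to that of tRF-18-8RF546D2 the change was G4A, with log2 fold changes of -1.62 (SE 0.302) and -0.85 (SE 0.353). This gap was the widest among the pairs tested on both sides, was picked out after the values were seen, and was not tested. The ending of tRF-16-WS7209D is 1 base (A9G) from that of tRF-17-WS7K092, one of the 5 ends set aside, and unlike the other tested families it was present as a single CC-ended form of 16 nt. Counts rest on exact sequence matches by the authors' mapping, so a misread base would move a read from one such family to its neighbour.

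For parents with other fragments in the table, the 3' ends can be set beside the rest of the same tRNA, with the limit that such fragments can also come from other tRNA genes of the same sequence. No test was made of these values. The 5' and internal fragments matching the His-GTG genes had 1367, 1125 and 1253 counts in the knockout and 780, 336 and 551 counts in the wild type, a log2 ratio of mean CPM of 1.23, while the His-GTG 3' ending had -2.60 on the same scale. Internal fragments of the Lys-CTT gene had 1723, 985 and 1440 counts in the knockout and 1033, 573 and 571 counts in the wild type, a log2 ratio of 0.94, against -1.06 for its 3' ending. For both tRNAs the knockout libraries were above the wild-type libraries in the one kind of fragment and below them in the other. The His-GTG 3' ending passed the filter on low counts through the wild type, where it is high, so nothing is read from its side. The 5' and internal fragments of the Gly-GCC genes had a log2 ratio of -0.22 with overlapping groups, against -1.26 for the 3' ending. That sum joined kinds that went different ways. The kinds of 5' fragment had log2 ratios of -0.24 and -0.72, each with overlapping groups. The internal fragments had a log2 ratio of 0.54, at 89118 ± 6487 CPM in the knockout and 61225 ± 3416 CPM in the wild type. For these, every knockout library was above every wild-type library. The Arg-ACG gene had 59 counts outside its 3' end, with a log2 ratio of -1.34 and overlapping groups, against -1.32 for its 3' ending. The Glu-TTC genes had 156, 130 and 200 counts outside their 3' ends in the knockout and 359, 145 and 170 counts in the wild type. In CPM all knockout libraries were lower there, with a log2 ratio of -0.41 against -1.27 for the 3' ending. The Thr-TGT gene had 44 such counts, the Thr-AGT gene 38, the Asn-GTT gene 7 and the Trp-CCA gene 4, too few to set beside their 3' ends. So were those of the Ala-AGC gene and of TRL-AAG2-2, with 3 each. The Ile-AAT gene TRI-AAT8-1 had 14, also too few, with 5, 4 and 3 in the knockout and 0, 1 and 1 in the wild type. Parents of families with under 30 counts were left out.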

How the data were processed

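The authors deposited raw read counts per fragment for 6 small RNA libraries, with no normalization. Per the series' design text, reads were mapped to tRNA with MINTmap. FastQC, cutadapt, DESeq2 and the GRCh38 build are named, without versions or settings, in the submitters' processing notes. Identifiers are MINTbase licence plates, which were decoded to sequence. The members and lists were chosen with earlier results of these data known.

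All 3443 fragments were filtered by filterByExpr (minimum count 10), scaled by TMM and tested with edgeR 4.0.16 in R 4.3.3, knockout minus wild type, Benjamini-Hochberg adjusted at 0.05. The same was done on the table with 3' tRFs summed by family and other fragments as single rows. Standard errors are the fold change over the root of F. Totals of 15742 to 32754 counts limit tests to abundant fragments. tRNA ends were read from GENCODE 29 transcripts and RefSeq promoter windows on GRCh38. DESeq2 1.42.0, other scalings, filters and groupings, and fits without each library were alternatives. Replicates are called biological in the design text. Families that passed the filter were named, and rarer ones from 30 counts. The fit was tested on simulated data.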

Additional observations from a re-analysis of the deposited data

How the results depend on the processing

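The count of 14 lower families was 9 to 17 when 1 library was left out (9 without knockout replicate 2) and 5 of 5 with 50 or more counts in 3 libraries, where fewer families could be tested. The count of 17 lower fragments was 9 to 18 when 1 library was left out, 9 with DESeq2's Wald test and 2 of 2 with 50 or more counts in 3 libraries. The count of higher fragments was 0 to 1 when 1 library was left out (1 without wild-type replicate 3), and that of higher families was 0 throughout. The higher fragment, tRF-16-2WMK81B, passed the filter there only through the knockout, where it is high, so nothing is read from that call. In the family table the median log2 fold change of all rows was 0.03, and it was 0.14 with library totals only and -0.09 with upper quartile scaling; in the fragment table it was -0.01, and 0.10 with DESeq2's size factors. With these scalings 14, 17 and 14 families were lower (totals, upper quartile, DESeq2's factors).

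Direction reversed for the Trp-CCA ending alone among single families and fragments. Its family (0.02) had a log2 fold change of -0.10 with upper quartile scaling, and -0.28 to 0.60 when 1 library was left out (-0.03 without knockout replicate 3, -0.22 without wild-type replicate 1). Its fragment tRF-17-8HWKS52 (0.0036) had -0.035 with upper quartile scaling, -0.015 with a replicate block, and -0.28 to 0.45 when 1 library was left out (-0.19 without knockout replicate 2, -0.10 without wild-type replicate 1). The difference in CCA-ended share, knockout minus wild type, was 0.40 points and ran from -0.59 to 1.04 points when 1 library was left out. The difference in mean length was 0.014 nt, -0.0074 nt without the largest family, and -0.011 to 0.045 nt when 1 library was left out. The cause was not tested in any of these.

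With the replicate number as a block, 14 families and 15 fragments were lower. Same-numbered libraries shared only a number: the correlations of their deviations from the group means were 0.371, -0.070 and 0.107 for replicates 1, 2 and 3, and not every library correlated best with its own number. At 15742 to 32754 counts per library, 45 of 63 families and 196 of 217 fragments were left out by the filter on low counts. With no filter all 63 families and 217 fragments were tested, and 12 of each were lower. An alternative chosen after seeing the data, leaving out each library, gave 25.3% to 51.4% of wild-type CPM for mitochondrial 3' tRFs and 27.6% to 30.8% for the ends set aside.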

Other observations

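The 15 fragments that ended in a single C, and so entered no family, had 2, 3 and 4 counts in the knockout and 6, 4 and 2 counts in the wild type, too few to compare. Below 30 counts, the ending of tRF-18-0RER9LD2, picked out after its counts were seen, had 3, 2 and 8 counts in the knockout and 7, 3 and 4 counts in the wild type, with overlapping groups. Mitochondrial 3' tRFs, set aside by the rule, had 49, 38 and 81 counts in the knockout and 108, 207 and 127 counts in the wild type.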
